A study of Mus musculus with 8 samples.

Results

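The loci of 7 genes of the G1 cell cycle machinery were examined in mouse leukaemia cells: the cyclin-dependent kinase genes Cdk6 and Cdk4, the D cyclin genes Ccnd1, Ccnd2 and Ccnd3, and the E cyclin genes Ccne1 and Ccne2. The data at these loci are ATAC-seq peaks, stretches of DNA where a transposase inserted sequencing adapters into open chromatin. A peak was taken where its summit, the position of its highest read pile-up, lay in the body of 1 of the genes or within 50 kb of it on the mm10 build. Overlapping peaks of the 8 libraries, by 1 bp or more, were merged, which gave 62 regions at the 7 loci out of 32730 in the whole genome.

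The cells were GFP+ MLL-AF9 acute myeloid leukaemia cells, sorted from leukaemic mice, with bone marrow as the labelled tissue and C57BL/7 as the strain name in the labels. All 4 groups carried the TetO-Klf4 construct, from which doxycycline induces Klf4, a zinc-finger transcription factor. The groups were cells sorted at 0h, 6h, 12h and 24h, with 2 libraries each, and the study asked how chromatin accessibility changed as leukaemia cells were eliminated after induction. Whether the 0h cells had received doxycycline is not stated in the labels, nor is it stated whether the libraries of 1 time came from separate mice.

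In G1, D cyclins bind and activate Cdk4 and Cdk6, which phosphorylate the retinoblastoma protein and so release E2F factors. E2F factors induce the E cyclins, which activate Cdk2 and drive entry into S phase. Cdk6 is known as a target of MLL fusion proteins and as a gene that MLL-AF9 leukaemia cells need for growth, and Klf4 is known in many tissues as a brake on the cell cycle.

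The sequences before the annotated starts are shown because the peaks over them are the regions that most directly mark each gene. The RefSeq promoter table (GRCm38.p6) held 5 start windows for 4 of the genes, Cdk6, Cdk4, Ccnd3 and Ccne1. The 250 bases before each start follow, 5′ to 3′ on the gene's strand, with capitals marking each match, on either strand, to CCNCNCCC, the letters searched for KLF factors (overlapping matches run together).
Cdk6 (chr5:3343643-3343892, + strand): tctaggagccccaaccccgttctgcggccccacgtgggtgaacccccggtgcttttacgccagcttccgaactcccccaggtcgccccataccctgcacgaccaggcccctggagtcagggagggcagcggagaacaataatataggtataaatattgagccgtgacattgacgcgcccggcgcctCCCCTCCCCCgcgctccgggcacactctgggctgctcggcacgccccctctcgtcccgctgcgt
Cdk4 (chr10:127063285-127063534, + strand): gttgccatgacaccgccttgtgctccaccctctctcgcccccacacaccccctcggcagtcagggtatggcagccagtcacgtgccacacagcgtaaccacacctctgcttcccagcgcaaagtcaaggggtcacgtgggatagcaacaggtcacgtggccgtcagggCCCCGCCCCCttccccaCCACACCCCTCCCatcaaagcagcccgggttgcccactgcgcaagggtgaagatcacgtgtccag
Ccnd3, first start (chr17:47504801-47505050, + strand): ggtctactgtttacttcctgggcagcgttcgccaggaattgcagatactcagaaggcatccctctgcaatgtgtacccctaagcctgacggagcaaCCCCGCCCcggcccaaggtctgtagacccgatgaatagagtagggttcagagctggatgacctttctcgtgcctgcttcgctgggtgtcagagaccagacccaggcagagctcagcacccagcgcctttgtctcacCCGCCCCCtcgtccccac
Ccnd3, second start (chr17:47593217-47593466, + strand): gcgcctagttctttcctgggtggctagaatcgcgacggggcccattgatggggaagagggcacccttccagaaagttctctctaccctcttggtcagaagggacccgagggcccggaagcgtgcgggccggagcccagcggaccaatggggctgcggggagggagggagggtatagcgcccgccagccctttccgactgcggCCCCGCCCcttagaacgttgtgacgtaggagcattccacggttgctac
Ccne1 (chr7:38107491-38107740, - strand): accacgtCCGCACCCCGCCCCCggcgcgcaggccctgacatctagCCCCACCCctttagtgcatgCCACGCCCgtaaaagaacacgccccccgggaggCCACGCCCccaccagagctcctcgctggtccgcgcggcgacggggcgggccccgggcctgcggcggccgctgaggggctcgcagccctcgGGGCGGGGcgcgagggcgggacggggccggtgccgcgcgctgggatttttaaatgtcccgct

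All 5 windows, taken as 250 bases before and 50 after the start, held at least 1 CCNCNCCC match, as did 49.5% of the 32851 windows in the table. Ccne1 had 7 matches in its window, Cdk4 had 6, and Cdk6 and both Ccnd3 windows had 2 each. GGGCGG, the letters searched for SP factors, which can overlap CCNCNCCC on the other strand, was in 4 of the 5 windows and in 35.7% of all windows. The Cdk6 window was the one without it. GCGGGAA, searched for E2F factors, was in 0 of the 5 windows and in 4.60% of all. CACGTG, the E-box bound by Myc and related factors, was added after the data were seen: Cdk4 had 4 matches and Cdk6 had 1, and 7.15% of all windows held it. These matches describe letters and not bound sites.

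Depth differed between libraries and may bear on any absent peak, which was not tested. Lists held 14826 to 21903 peaks. The whole-number read pile-up at each summit was recovered from the authors' fold enrichment and p-value for 99.8% to 99.9% of the peaks. Over the 9170 regions called in all 8 libraries, the median summit pile-up was 31 and 14 tags at 0h, 21 and 22 tags at 6h, 29 and 26 tags at 12h, and 21 and 22 tags at 24h, for replicates 1 and 2. The second 0h library was thus the shallowest and the first the deepest, and the lowest pile-up that was called was 4 or 5 tags. Of 5 myeloid marker genes, 2 to 5 had a peak inside them or up to 10 kb away in each library, and Spi1 and Elane had one in all 8. B lineage markers had peaks at 3 of 4 genes in each 0h, 6h and 12h library and at 2 and 1 genes at 24h, and the stromal markers Col1a1 and Pdgfrb at 2 of 2 genes in both 0h and both 6h libraries, at 2 and 1 in the 12h libraries and at 0 and 1 in the 24h libraries. Peaks at T lineage genes were called at 2 or 3 of 3 genes, at the erythroid genes at 1 of 3 (Klf1) in all 8 libraries, and at the endothelial genes at 0 or 1 of 2, with none at Gata1 or Kdr. The part of other cell types in the peaks below was not tested, and in bulk cells fewer cells with an open region and less opening per cell cannot be told apart.

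Of the 62 regions, 20 were called in all 8 libraries (32.3%), against 28% of all merged regions, which is close to that background. A further 28 were called in 2 to 7 libraries, as were 14435 of the 32730 merged regions. In 1 library alone, 14 were called (22.6%, against 27.9% of all merged regions). The first and second libraries held 42 and 31 member regions (0h), 37 and 31 (6h), 39 and 34 (12h), and 32 and 29 (24h). The regions called in all 8 libraries lay mostly at gene ends: 13 of 20 (65%) were within 1 kb of an end of a protein-coding gene, compared with 5 of the 42 others (11.9%). They were also the stronger ones, with a median fold enrichment of 10.6, compared with 5.88 for regions in 2 to 7 libraries and 4.51 for those in 1. Both patterns hold genome-wide: over all merged regions 66.8% of those called in all 8 libraries and 16.4% of the others were near a gene end, and the median fold enrichments were 10.4, 6.63 and 5.19. Fold enrichment here is the authors' value per peak, the summit pile-up over the local background, and its scale moves with depth. Where libraries are set in order below, relative pile-up is used, which is the summit pile-up divided by the library's median over the 9170 shared regions. The 2 libraries of a time shared 29 of 44 member regions called in either at 0h (65.9%), 28 of 40 at 6h (70%), 28 of 45 at 12h (62.2%) and 24 of 37 at 24h (64.9%). Over all regions these shares were 54.6%, 63.7%, 65.1% and 66.6%. Of the member regions called at a time, roughly 1 in 3 therefore had a peak in 1 of the 2 libraries alone.

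**Figure D1:**
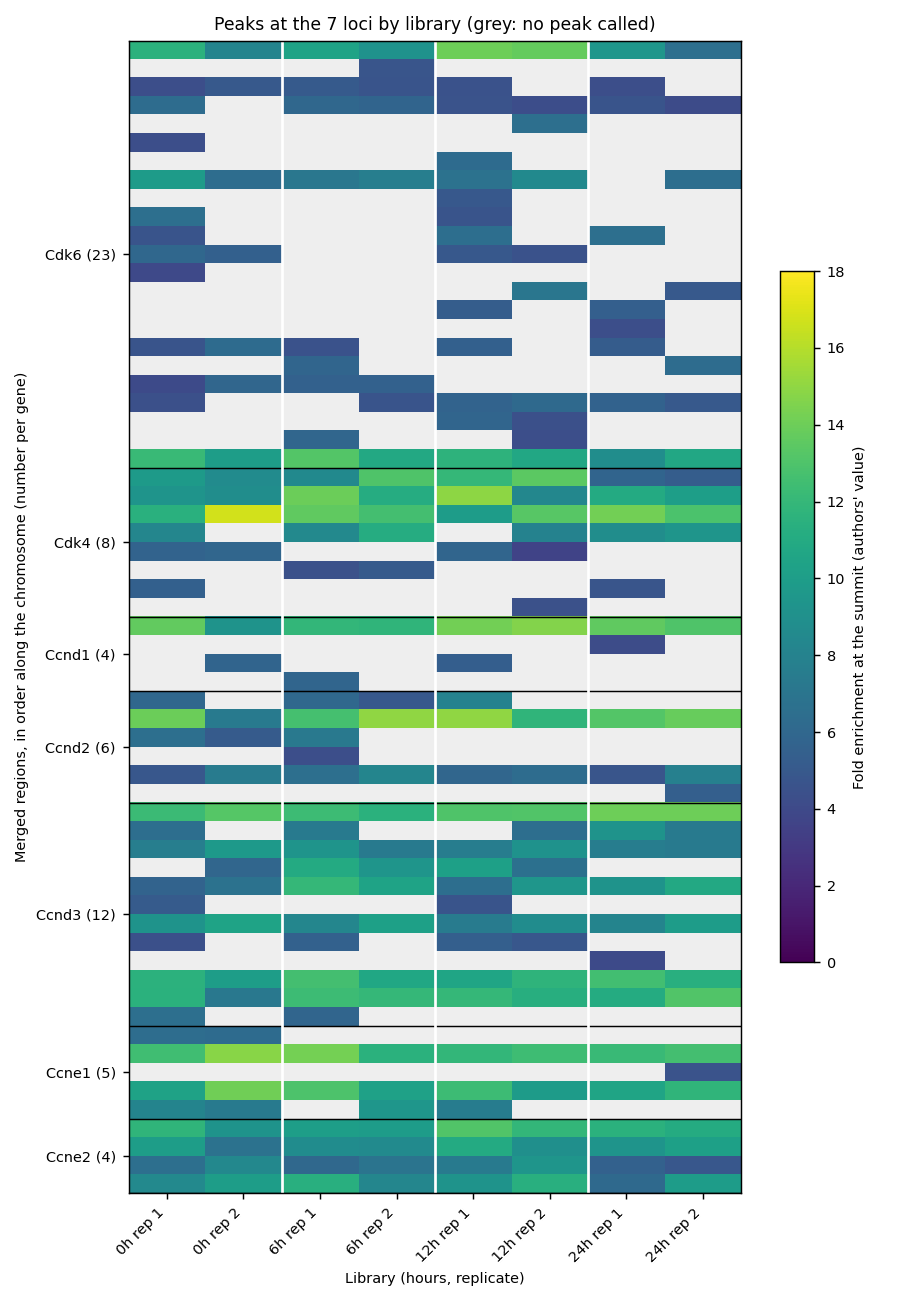
Fold enrichment at the summit (colour, the authors' value) of the 62 merged regions at the 7 loci (rows, in order along each chromosome) in the 8 libraries (columns, by hours and replicate), with grey where no peak was called. The Ccne2 rows are filled in all 8 libraries, while most of the 23 Cdk6 rows have gaps.

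Cdk6, the kinase partner of the D cyclins that is prominent in blood cells, had the most regions, 23, and the longest body of the 7 genes at 190 kb (chromosome 5, 3341004 to 3531008). Of these, 21 lay in the body, which is 1.11 per 10 kb, but 0 of the 21 were called in all 8 libraries and 7 were called in 1. Over all merged regions, 28% were called in all 8 libraries and 27.9% in 1, and no test was made of the difference. That 28% is not a like background for a gene body. Genome-wide, 66.8% of the regions called in all 8 libraries lay within 1 kb of a gene end, where most Cdk6 body regions did not. The share among regions away from gene ends is not given here. Both Cdk6 regions called throughout lay outside the body. The first, at 3300592 to 3301430, lies 40.0 kb below the lower end of the body and had fold enrichments of 11.5 and 8.11 (0h), 10.4 and 9.18 (6h), 14.02 and 13.7 (12h), and 9.43 and 6.56 (24h). By relative pile-up, both 12h libraries were highest, with 1.34 and 1.27, and the second 24h library was lowest. The 24h and 0h values overlapped. The other, at 3543679 to 3544238, lies 0.038 kb from an end of a neighbouring gene, Fam133b, with values of 8.83 to 13.2.

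The region over the annotated Cdk6 start, at 3343640 to 3344586, was called in 7 libraries and missing in the second 0h library, the shallowest. Its fold enrichment was 6.38 in the first 0h library, 5.99 and 5.79 (6h), 4.57 and 4.28 (12h), and 4.69 and 4.13 (24h). The pile-up at the summit was 31 tags in the first 0h library, 18 and 16 (6h), 14 and 11 (12h), and 10 and 9 (24h). All 4 libraries of 12h and 24h were thus below the 3 called libraries of 0h and 6h. At 0h this order rests on the first library alone, since the second has no value here. That second library did have a peak of 9 tags in the neighbouring region at 3342241. Why it lacked one at the start region was not tested. The relative pile-up at the start region was 1.00 in the first 0h library, 0.857 and 0.727 (6h), 0.483 and 0.423 (12h), and 0.476 and 0.409 (24h), with the same order. Summits were taken per library and lay at different positions within the region, and in the second 24h library the peak spanned 3344359 to 3344549, beyond the start itself. The window printed above overlapped a peak in 5 of the 7 libraries.

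This order was noticed after the values were seen. Among the 22 member regions called in at least 7 libraries and with a recovered pile-up, 1 (4.55%) had every called 12h and 24h library below every called 0h and 6h library, against 2.5% of 11473 such regions in the genome. With so few members, 1 region is no result about the loci. In the opposite direction, 1 of 22 (Ccnd1 locus, at the end of LTO1) had every 12h and 24h library above every 0h and 6h library by relative pile-up, against 1.9% of all such regions. By fold enrichment 0 of 22 did, against 2.79%. By fold enrichment, 1 of 22 (the same Cdk6 region) was below, against 0.905% of all such regions. No test was made of these differences, since the division of times was chosen after the values were seen.

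The neighbouring region just before the Cdk6 start, at 3342241 to 3343399, was called in 6 libraries. Its relative pile-up was 0.677 and 0.643 (0h), 0.714 and 0.591 (6h), 0.483 in the first 12h library and 0.429 in the first 24h library, with no peak in the second 12h and 24h libraries. The called 12h and 24h values lay below those of 0h and 6h, but the peaks differed in position. The 24h peak, 3342241 to 3342557, overlapped that of the first 6h library alone. These values therefore do not follow a single site over time. Deeper in the body, at 3405205 to 3405769, a region 64.4 kb from the lower end of the gene was called in 7 libraries and missing in the first 24h library, with fold enrichments of 6.42 to 9.91.

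**Figure D2:**
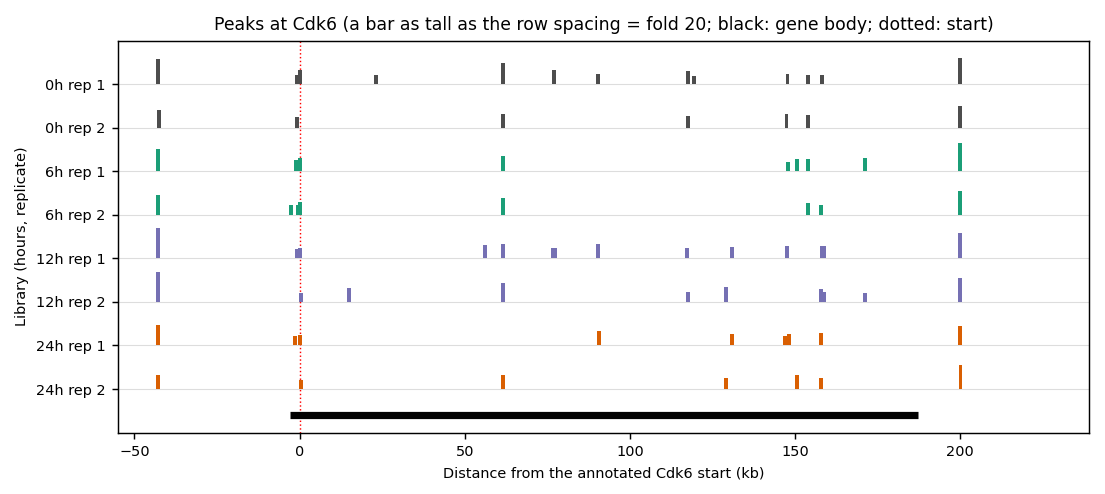
Peaks at the Cdk6 locus in the 8 libraries (rows, by hours and replicate) by distance from the annotated Cdk6 start in kb, with each peak drawn at a fixed width and a height proportional to its fold enrichment. The regions 40.0 kb below the body and at the Fam133b end are filled in all 8 rows, and the region at 0 is filled in all rows but the second 0h library.

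Inside Cdk6, 3 regions were gained or lost against 0h. Gained means a peak in both libraries of the later time and in no 0h library, and lost means the reverse. At 3461044 to 3461677, fold enrichments were 5.99 and 5.51 (0h) and 4.97 and 4.53 (12h), with no peak at 6h or 24h. It was therefore lost at 6h and 24h but present at 12h, with pile-ups of 9 and 7 tags at 12h and 14 and 7 tags at 0h. The first 12h peak, 3461086 to 3461281, did not overlap the second 0h peak, 3461446 to 3461572. The 12h and 0h peaks are thus not all at a single site. At 3497619 to 3497847, values were 4.06 and 5.91 (0h) and 5.62 and 5.60 (6h), with no peak in any 12h or 24h library, so it was lost at both later times. At 3502655 to 3502875, both 12h libraries had a peak, with 5.87 and 4.38, and no library of another time did. Pile-ups at the regions at 3497619 and 3502655 were 11 to 20 tags.

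Cdk4, the other kinase partner of the D cyclins, had a start region that was strong at every time (chromosome 10, 127062730 to 127063915). Fold enrichments were 11.4 and 16.7 (0h), 13.6 and 12.6 (6h), 9.92 and 13.3 (12h), and 14.2 and 12.9 (24h). Its pile-ups of 39 to 61 tags include the highest of any member peak, and the relative pile-ups at 24h, 2.14 and 2.09, lay between those at 0h, 1.97 and 2.79. No region had its summit of highest fold enrichment in the 3.75 kb body, and the other 7 regions of the locus are at distances where neighbouring genes are nearer. Of these, 2 more were called in all 8 libraries, at an end of Eef1akmt3 (127041366 to 127042252, fold 8.34 to 14.9) and at an end of Tsfm (127030174 to 127030977).

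The Tsfm end had fold enrichments of 9.77 and 8.66 (0h), 8.58 and 13.03 (6h), 12.0 and 13.5 (12h), and 5.83 and 5.29 (24h). By relative pile-up both 24h libraries were below the other 6, with 0.429 and 0.318 at 24h against 0.613 and 0.786 at 0h. Inside Agap2, 0.234 kb from its end, a region at 127075147 to 127075690 was lost at 6h and 24h, with fold enrichments of 5.72 and 5.96 (0h) and 5.91 and 3.61 (12h) and no peak at 6h or 24h. The 0h peaks there, 127075147 to 127075460 in the first library and 127075452 to 127075690 in the second, shared few bases. The neighbouring region at 127076048 to 127076274 was called in both 6h libraries, with 4.49 and 5.18, and in no other, and so was gained at 6h. These regions belong by position to Agap2 and not to Cdk4.

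Ccnd1, cyclin D1, had the fewest regions with Ccne2, 4 each, and no region within 1 kb of either of its ends (chromosome 7, body 144929931 to 144939831). A single library, the first at 24h, had a peak in the body, with 5 tags. Beyond the higher-coordinate end of the gene, 1 region at 144941415 to 144941655 was called in the second 0h and the first 12h library, and 1 at 144943273 to 144943562 in the first 6h library. The region called in all 8 libraries at the locus, 144914526 to 144915526, lies 0.091 kb from an end of LTO1. It had relative pile-ups of 1.29 and 1.00 (0h), 1.24 and 1.09 (6h), 1.31 and 1.46 (12h), and 1.43 and 1.32 (24h).

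Ccnd2, cyclin D2, had a region in all 8 libraries at its higher-coordinate end (chromosome 6, 127151696 to 127152694). Fold enrichments were 4.87 and 7.51 (0h), 6.57 and 8.22 (6h), 5.91 and 6.39 (12h), and 4.73 and 7.82 (24h). Relative pile-ups were 0.429 and 0.773 at 24h against 0.452 and 0.857 at 0h, which overlap, and the second library was the higher one at every time. The 0h peaks, 127151826 to 127152346 and 127152473 to 127152625, did not overlap. The pile-ups thus do not come from a single site in the region. The second Ccnd2 region called throughout lies 0.102 kb from an end of Tigar, with 7.45 to 15.04. In the Ccnd2 body, 9.91 kb from an end of Ccnd2, a region at 127142203 to 127142855 had 6.59 and 5.15 (0h) and 7.27 in the first 6h library. It had no peak at 12h or 24h, so it was lost at both, on pile-ups of 10 and 6 tags at 0h.

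Ccnd3, cyclin D3, had 12 regions, 8 in its 94.6 kb body, and 6 called in all 8 libraries, the most of the 7 loci (chromosome 17, body 47505051 to 47599689). The first of its annotated starts had no peak over its promoter window in any library. The window of the second start overlapped a peak in all 8, at 47593302 to 47593792, with fold enrichments of 9.26 and 10.4 (0h), 8.27 and 10.2 (6h), 7.47 and 8.73 (12h), and 8.14 and 9.98 (24h). Relative pile-ups there were 1.19 and 1.41 at 24h against 1.23 and 1.64 at 0h, which overlap. Further regions called throughout in the body were at 47511159 to 47511902, with 7.33 to 9.67, and at 47542136 to 47542404. In the region at 47542136 the relative pile-up was 0.258 and 0.571 (0h), 1.00 and 0.773 (6h), 0.345 and 0.654 (12h), and 0.619 and 0.955 (24h). Both 24h and both 6h libraries were above both 0h libraries, while the 12h values overlapped those of 0h. The other 3 regions called throughout lie outside the body: at the Taf8 end (11.5 to 14.1), at the Bysl end (10.1 to 12.6) and 1.17 kb from a Usp49 end (7.21 to 13.1).

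**Figure D3:**
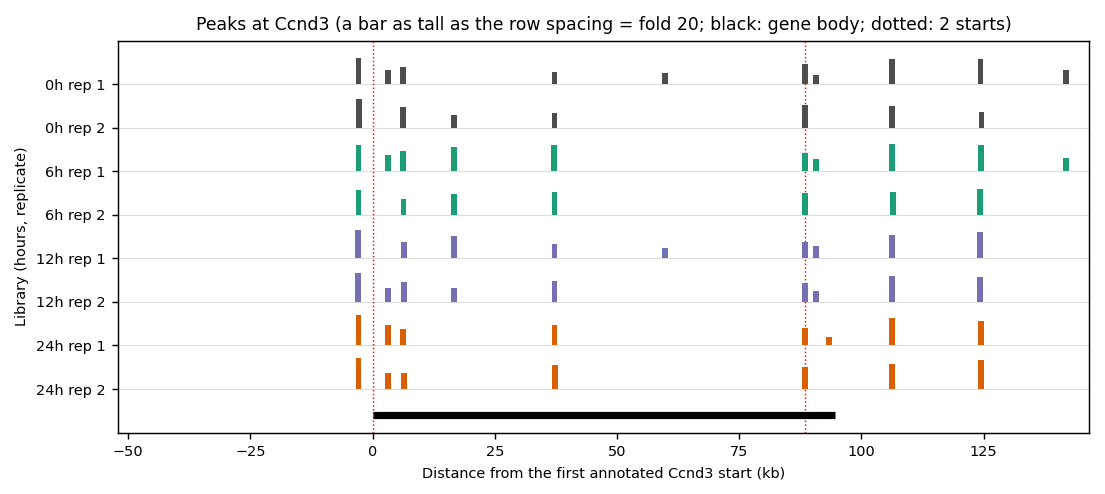
Peaks at the Ccnd3 locus in the 8 libraries (rows, by hours and replicate) by distance from the first annotated Ccnd3 start in kb, with each peak drawn at a fixed width and a height proportional to its fold enrichment. No library has a peak over the first start, and all 8 have one over the second.

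Another Ccnd3 region, at 47521430 to 47522033 in the body, was called at 5.95 in the second 0h library, 11.0001 and 9.37 (6h) and 10.3 and 6.62 (12h), and in neither 24h library. Since 1 of the 0h libraries lacked it, it counts as lost at 24h against 12h and not against 0h. That comparison was added after the data were seen. It took in 5 of the 62 regions (8.06%), against 6.82% of all regions, which is near the background: this one, the Ccnd3 region at 47595571 to 47595981, the Cdk6 regions at 3461044 and 3502655, and the Agap2 region.

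Ccne1, cyclin E1, the activator of Cdk2 at the G1 to S transition, had a start region in all 8 libraries (chromosome 7, 38107089 to 38108252). Fold enrichments were 10.4 and 14.1 (0h), 12.96 and 10.3 (6h), 12.4 and 9.89 (12h), and 10.5 and 11.8 (24h). A region 12.9 kb from the lower end of the gene, at 38084682 to 38085680, was called as strongly, with 11.5 to 14.8. In both regions the 24h and 0h relative pile-ups overlapped. At 38061210 to 38061470, both 0h libraries had a peak, with 6.40 and 6.32, and no later library did, so it was lost at 6h, 12h and 24h, on pile-ups of 11 and 7 tags. At 38155909 to 38156341, 27.2 kb from the nearest gene end, that of 1600014C10Rik, values were 8.09 and 7.34 (0h), 9.46 in the second 6h library and 7.56 in the first 12h library. No 24h library had a peak there, and it was lost at 24h.

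Ccne2, cyclin E2, the second activator of Cdk2, was the 1 locus where every region was called in every library. The region at the lower-coordinate end of the gene (chromosome 4, 11190916 to 11191950) had fold enrichments of 9.99 and 6.77 (0h), 8.74 and 8.63 (6h), 11.04 and 8.99 (12h), and 9.35 and 10.2 (24h). The 3 others lay at the Trp53inp1 end (9.22 to 13.1), at the Ints8 end (6.12 to 11.4) and 6.81 kb from the Ints8 end (4.90 to 9.39). None of the 4 was gained or lost.

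**Figure D4:**
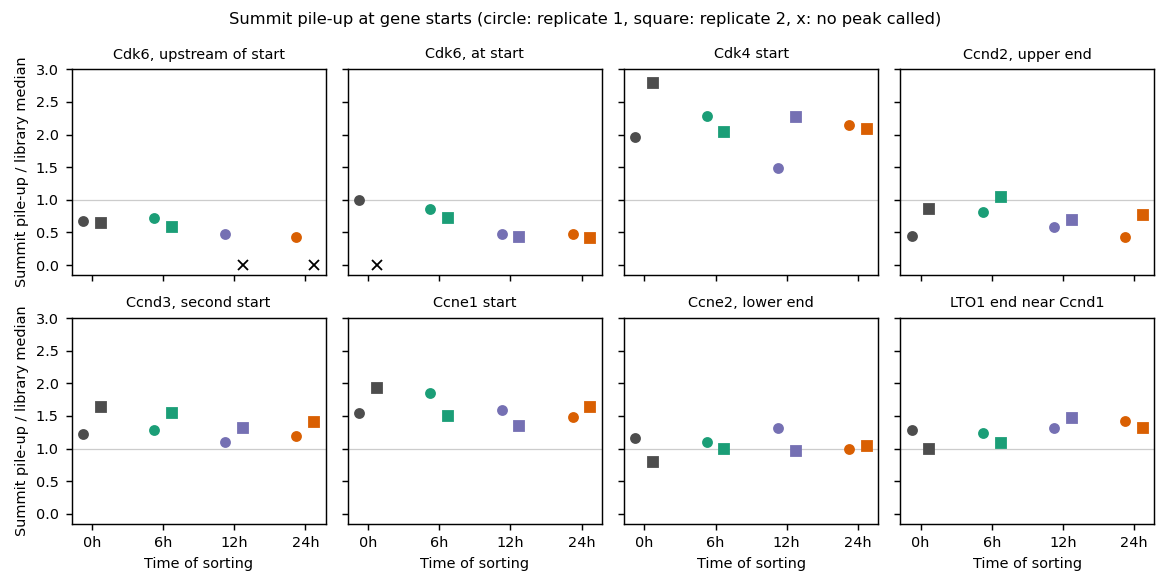
Summit pile-up at regions near gene starts or gene ends, divided by the library's median over the 9170 shared regions, by time of sorting (circle for replicate 1, square for replicate 2, x for no peak called). No start window was found for Ccnd1, Ccnd2 and Ccne2. The Ccnd2 and Ccne2 panels show a region at a gene end, and in the Ccnd2 region the peaks of the 0h libraries do not overlap. The Ccnd1 panel shows the LTO1 end, 14.9 kb outside the Ccnd1 body. In the panel at the Cdk6 start, values at 12h and 24h, 0.409 to 0.483, lie below the called values at 0h and 6h, 0.727 to 1.00. At 0h that panel has a value for the first library alone. In the panel before the Cdk6 start, the called 12h and 24h values, 0.483 and 0.429, lie below 0.591 to 0.714 at 0h and 6h. There the second 12h and 24h libraries have no peak, and the 24h peak overlaps no 0h or 12h peak. The Cdk4 values overlap between times.

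Counted over all 62 regions, changes against 0h were few. At 6h, 1 region was gained (1.61%, against 1.85% of all regions) and 3 were lost (4.84%, against 2.34%). At 12h, 1 was gained (1.61%, against 4.03%) and 3 were lost (4.84%, against 1.45%). At 24h, 0 were gained, against 1.12% of all regions, and 6 were lost (9.68%, against 4.43%). Losses thus took a larger share of the member regions than of all regions at each time, on counts of 3 to 6, and no test was made of that difference. The times are not separate observations of it. All were set against the same 0h libraries, and every region lost at 6h or 12h was also lost at 24h. With lists of equal length, 1, 1 and 2 of 52 member regions were lost at 6h, 12h and 24h. Without the second 0h library, 9, 7 and 13 of 62 were lost. The shares of all regions under these settings are not given here. The larger share of losses is therefore shown for the main setting alone. The 24h losses were the Cdk6 regions at 3461044 and 3497619, the Agap2 region near Cdk4, the region in the Ccnd2 body, and the Ccne1 regions at 38061210 and 38155909.

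The 14 gains and losses fell on 8 regions, whose peaks were weaker at the median than those of the constant regions. Their peaks had fold enrichments of 3.61 to 9.46, median 5.87, and pile-ups of 6 to 20 tags, median 10. The 20 regions called throughout had fold enrichments of 4.73 to 16.7, median 10.6, and pile-ups of 6 to 61 tags, median 24.5. With lists of equal length, 3 of the 14 calls were still made, namely the Agap2 region at 6h and 24h and the Ccne1 region at 38155909 at 24h. No Cdk6 call was among them. None of these 3 calls was made with a cover of at least 50%, which kept 7 of the 14, so no call was made under every alternative. A −log10 q minimum of 5 kept 8 of the 14.

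In the 20 regions called throughout, presence cannot differ, so relative pile-up was compared. Both 24h libraries were above both 0h libraries in 4 of 20 (20%), against 20% of all such regions, and below in 2 of 20 (10%), against 17%. Neither count stands out from the background. The 4 higher ones were at the LTO1 end, in the Ccnd3 body at 47542136, near Usp49 and at the Trp53inp1 end. The 2 lower ones were at the Fam133b end and the Tsfm end. By fold enrichment, 3 of 20 were above (15%, against 19.6%) and 3 below (15%, against 12.7%). Of the regions named here, the one at 47542136 and the Tsfm end were separated by both measures, and the other 4 by relative pile-up alone. None of these 6 is the start region of a cyclin or kinase gene.

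Other genes of the G1 to S pathway were read from a list of 34, which includes the retinoblastoma family, E2F and DP factors, CDK inhibitors and origin licensing genes. All 34 had at least 1 region in the body or within 50 kb, 187 regions in all, with a median of 5 per gene compared with 4 over all protein-coding genes. At 6h, 5 genes had a gained region (14.7%, against 7.69% of all genes) and 3 a lost one (8.82%, against 8.31%). By region, 5 of 187 were gained (2.67%, against 1.85% of all regions) and 5 were lost (2.67%, against 2.34%). The 6h gains were at E2f2, E2f4, Cks1b, Cdc6 and Cdt1, and the losses at Fbxw7, Mnat1 and Cdc6. All 5 regions gained at 6h lay nearest the end of a gene outside the list.

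At 12h, 14 genes of the list had a gained region (41.2%, against 16.1%) and 3 a lost one (8.82%, against 5.22%). By region, 15 of 187 were gained (8.02%, against 4.03% of all regions) and 3 were lost (1.60%, against 1.45%). The gains included Rbl1 and Rbl2, relatives of the retinoblastoma protein, the E2F genes E2f1, E2f2, E2f4 and E2f7, the DP partners Tfdp1 and Tfdp2, the CDK inhibitors Cdkn1a and Cdkn2d, and Cdc25a, Cks1b, Cdt1 and Mcm2. These genes are named by distance alone: of the 15 regions gained, 12 lay nearest the end of a gene outside the list, such as Samhd1 for Rbl1, Chd9 for Rbl2, Id3 for E2f2 and Galns for Cdt1. With lists of equal length, 2 of the 34 genes had a gain at 12h (5.88%, against 8.47% of all genes), so this count depends on the length of the lists. The 12h losses were at Tfdp1, Fbxw7 and Mnat1.

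At 24h, 2 genes had a gained region (5.88%, against 5.12%) and 7 a lost one (20.6%, against 14.7%). Counted over the 187 regions, 6 were lost at 24h (3.21%, against 4.43% of all regions), so the share was below the background by region and above it by gene. Of those 6 regions, 3 lay nearest the end of a gene outside the list. The gains were at Cdkn1a, which encodes the CDK inhibitor p21, and Cks1b. In the Cdkn1a body (chromosome 17, 29093606 to 29094090), fold enrichments were 3.72 in the second 6h library, 5.54 and 3.30 (12h) and 5.07 and 7.32 (24h), with no peak at 0h. A further Cdkn1a region, 13.4 kb outside the body at a Rab44 end, had 5.15 in the second 6h library, 6.05 and 5.52 (12h) and 6.39 and 5.91 (24h), again with none at 0h. The Cks1b region lay 36.8 kb from that gene and 0.979 kb from a Zbtb7b end. The 24h losses were at Rbl2, Tfdp1, Fbxw7, Mnat1, Cdt1 and at Cdkn2a and Cdkn2b, which share 1 region in the Cdkn2a body (chromosome 4, 89282054 to 89282382, fold 8.27 and 6.45 (0h)).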

How the data were processed

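ATAC-seq peaks of 8 libraries, 2 each at 0h, 6h, 12h and 24h, were used as deposited. BWA, SAMtools and MACS2 were run and mm10 was the build, per the submitters' processing notes; their versions and settings, any shift of reads for the transposase and the handling of duplicates were not given in the sources used here. Peaks were called separately for each sample, with 1 list deposited for each. Each peak has the authors' fold enrichment (a ratio), −log10 p-value and −log10 q-value (lowest 2.00), a deposited integer score, which was not used, and the summit offset. No read totals were used here, so depth is known only through the pile-up.

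Overlapping peaks on the main chromosomes were merged at a minimum of 1 bp (Python 3.11.15, numpy 2.4.6, scipy 1.17.1, figures with matplotlib 3.10.9). The whole-number pile-up was recovered from fold and −log10 p within a tolerance of 0.001, a step tested on simulated data. Gene bodies came from RefSeq on GRCm38, whose table used here gives no strand. No test was made of the presence calls against 0h, where 2 libraries against 2 allow no exact two-sided p under 0.333. The pile-up comparisons were chosen after the values were seen and are given as descriptions. Counts were set against the same counts over all regions or genes. Groups and replicate numbers came from the titles.

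The named regions were those gained or lost at any time, called in all 8 libraries, called in both libraries of 1 time alone or nearest a gene start, and the listed pathway genes with a change. The members and lists were chosen with earlier results of these data known. Relative pile-up, the 24h against 12h comparison and the E-box were added after the data were seen. Alternatives were a −log10 q minimum of 5, equally long lists (14826 peaks by −log10 p), a cover of at least 50%, windows of 10 and 100 kb, fixed windows of 250 bp to each side of summits, each library left out and a replicate block.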

Additional observations from a re-analysis of the deposited data

How the results depend on the processing

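The count of regions, 62, moved by less than 1.5 times under every setting run, with 59 to 62 when single libraries were left out. Counts of gained and lost regions rest on weak peaks and moved with most settings, though fixed windows around summits kept all 14 of the region calls. Requiring −log10 q of at least 5 gave 0 gains at 6h, 0 gains at 12h and 3 losses at 24h against 12h. Lists of equal length gave 0 gained and 1 lost at 6h, 2 gained and 1 lost at 12h, 1 gained and 2 lost at 24h, and 2 lost at 24h against 12h. A cover of at least 50% gave 1 loss at 6h, 3 gains at 12h, 3 losses at 24h and 8 regions in all 8 libraries. The shares of all regions under these settings are not given here, so these counts are no result about the loci. A window of 10 kb gave 8 regions in all 8 libraries, and one of 100 kb gave 8 losses at 24h against 12h. Fold in place of relative pile-up gave 0 regions with all 12h and 24h libraries above all 0h and 6h libraries.

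Leaving out single libraries gave 1 to 5 gains and 3 to 9 losses at 6h, 1 to 5 gains and 3 to 7 losses at 12h, 0 to 4 gains and 6 to 13 losses at 24h, 5 to 12 losses at 24h against 12h, and 20 to 21 regions in all remaining libraries. The 24h losses numbered 13 without the second 0h library, the shallowest, and the 6h and 12h losses 9 and 7. The most gains came at 6h without the second 6h library, at 12h without the first 12h library, and at 24h without the first 0h library or either 24h library. The 12 losses at 24h against 12h came without the second 12h library. Relative pile-up at 24h was above 0h in 5 to 8 regions (8 without the second 0h library) and below in 4 to 10 (10 without the first), and 12h and 24h were above 0h and 6h in 1 to 2 and below in 1 to 2. Fewer libraries make every such call easier to meet. The shares of all regions without each library, or with the replicate block below, are not given here. With a replicate block, that is within pairs of libraries with the same number, gains were 10 at 6h, 12 at 12h and 12 at 24h, and losses were 13 at 6h, 10 at 12h and 18 at 24h, under a looser rule that needs 1 pair. The labels do not say that the numbers pair mice. Depth may limit any absent peak, most of all in the second 0h library, and its part was not tested.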
